A study of Rattus norvegicus with 50 samples.

Results

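The 8 genes described here encode DNA repair proteins: Parp1, Xrcc1 and Ogg1 of base excision and strand break repair, Xpa, Xpc and Ercc1 of nucleotide excision repair, Mgmt of direct damage reversal and Brca1 of homologous recombination. They were chosen by name, as a question about DNA repair under a nickel carcinogen, with earlier results of these data known. They are 8 of the 13438 genes that could be read from the expression table. Each was measured by a single probe set that carries 1 gene symbol, so no choice between probe sets was needed. Expression was measured in male Fischer 344 rats that inhaled an aerosol of nickel subsulfide, Ni3S2, a sparingly soluble carcinogen of the rat lung. The exposed groups breathed 0.60, 0.15, 0.08 or 0.04 mg/m3 (0.44, 0.11, 0.06 or 0.03 mg of nickel per m3), and the controls were held at 0 mg/m3. Exposure was for 6 hours on 5 days of each week, over 1 week in all (5 exposure days) or over 4 weeks (20). Each time had its own unexposed rats, which makes 10 groups. The rats were about 7 to 8 weeks old when they were received. Of 13 animals in a group, 8 were set aside for expression and nickel burden, and arrays were run for the 5 whose RNA was of the best quality, so n = 5 in every group. RNA came from microdissected distal airway and alveolar tissue of the right caudal lobe. It is a mixture of cell types, and in it fewer cells of a type and less RNA per cell cannot be told apart.

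DNA is repaired by separate pathways for separate lesions. In base excision repair a glycosylase such as Ogg1, which removes the oxidised base 8-oxoguanine, opens a gap that passes through a strand break, Parp1 senses the break and makes poly(ADP-ribose) there, and Xrcc1 is the scaffold that gathers the enzymes that close it. In nucleotide excision repair Xpc recognises a distorted helix, Xpa verifies the damage, and Ercc1 with its partner nuclease cuts beside it, while Mgmt lifts alkyl groups off guanine in a single step and Brca1 directs the repair of double-strand breaks by homologous recombination. Nickel compounds are studied for oxidative DNA damage and for interference with repair proteins.

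The promoters of 4 members are shown because Parp1 was the member called higher after 4 weeks, and because Xrcc1, Mgmt and Ercc1 fell together after 1 week. Each is the stretch of 250 bases before the annotated start, 5′ to 3′ on the gene's strand, from RefSeq on the rat build GRCr8. All 4 lie on the plus strand. Capitals mark the GC box GGGCGG, read on both strands (CCGCCC on the other), and the CCAAT box (ATTGG on the other).
Parp1, chr13:94839234-94839483: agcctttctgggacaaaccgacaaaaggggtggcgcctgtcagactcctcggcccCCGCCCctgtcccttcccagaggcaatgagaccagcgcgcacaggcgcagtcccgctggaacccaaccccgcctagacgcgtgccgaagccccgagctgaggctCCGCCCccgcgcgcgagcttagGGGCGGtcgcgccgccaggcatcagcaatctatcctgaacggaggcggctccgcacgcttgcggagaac
Xrcc1, chr1:89268939-89269188: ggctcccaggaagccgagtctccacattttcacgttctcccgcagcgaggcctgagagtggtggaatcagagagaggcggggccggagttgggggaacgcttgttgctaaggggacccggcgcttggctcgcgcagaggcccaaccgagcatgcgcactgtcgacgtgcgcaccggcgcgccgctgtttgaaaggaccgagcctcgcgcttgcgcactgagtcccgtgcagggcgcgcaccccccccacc
Mgmt, chr1:201140582-201140831: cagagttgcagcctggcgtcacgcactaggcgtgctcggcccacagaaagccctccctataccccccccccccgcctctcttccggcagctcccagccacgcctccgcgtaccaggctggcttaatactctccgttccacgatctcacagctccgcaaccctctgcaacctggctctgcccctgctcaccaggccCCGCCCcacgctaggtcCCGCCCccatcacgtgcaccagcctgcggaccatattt
Ercc1, chr1:88124491-88124740: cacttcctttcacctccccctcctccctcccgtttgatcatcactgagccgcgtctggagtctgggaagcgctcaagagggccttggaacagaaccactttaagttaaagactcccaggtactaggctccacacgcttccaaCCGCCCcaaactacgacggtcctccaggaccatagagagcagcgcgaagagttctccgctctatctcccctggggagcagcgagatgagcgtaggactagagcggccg
Parp1 held 3 GC boxes, Mgmt 2, Ercc1 1 and Xrcc1 0, and the CCAAT box was in none of these 4 stretches. Of 27457 rat promoters of the same length, 32.4% held at least 1 GC box and 34.3% a CCAAT box, and the marked matches did not overlap. GC content was 68.8% for Parp1, 68.0% for Xrcc1, 66.4% for Mgmt and 58.4% for Ercc1, against a median of 52.0% over all these promoters. Of the other members, Ogg1 held 1 GC box, Xpc 2 and Brca1 0, and Brca1 held 1 CCAAT box. A promoter sequence was matched for 7 of the 8 members. A match says only that the letters are there.

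Levels are given as log2 intensities. A change is the log2 difference, exposed minus control of the same time, ± the standard error of the model. Adjusted p values come from limma over all 13438 genes, and a call means one under 0.05. The arrays did not all lie together. The first principal component of all genes held 63.5% of the variance. Mean positions on it were -76.5 at 0.04 mg/m3 of 1 week and -58.0 for the controls of that time, between -27.1 and 8.56 for the other 1-week groups, and between 20.4 and 38.2 for the 5 groups of 4 weeks. The 1-week 0.08 mg/m3 arrays were spread from -64.7 (replicate 1) to 5.46 (replicate 3). Of all genes, 45.6% had a correlation with this component of at least 0.8 in either direction over the 50 arrays. With the first component of the genes other than the 8 members, the correlation was -0.99 for Ercc1, -0.98 for Mgmt, -0.96 for Xrcc1 and -0.93 for Ogg1. It was 0.94 for Xpa, -0.47 for Xpc, -0.18 for Parp1 and -0.06 for Brca1. Scan dates and extraction batches were not analysed here. The tissue label was checked against markers: the mean of 7 alveolar type 2 markers lay between 11.76 and 12.04 in the 10 groups, and that of 3 club cell markers between 11.71 and 12.58. Club cell means were lower at 0.60 than at 0 mg/m3, at 1 week (12.01 and 12.57) and at 4 weeks (11.71 and 12.45). Muscle markers varied more. The mean of 5 heart muscle markers ran from 7.33 (1-week controls, arrays from 4.81 to 8.98) to 10.73 (0.04 mg/m3, 4 weeks). That of 5 smooth muscle markers ran from 8.24 (0.60 mg/m3, 4 weeks) to 10.18 (1-week controls).

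**Figure D1:**
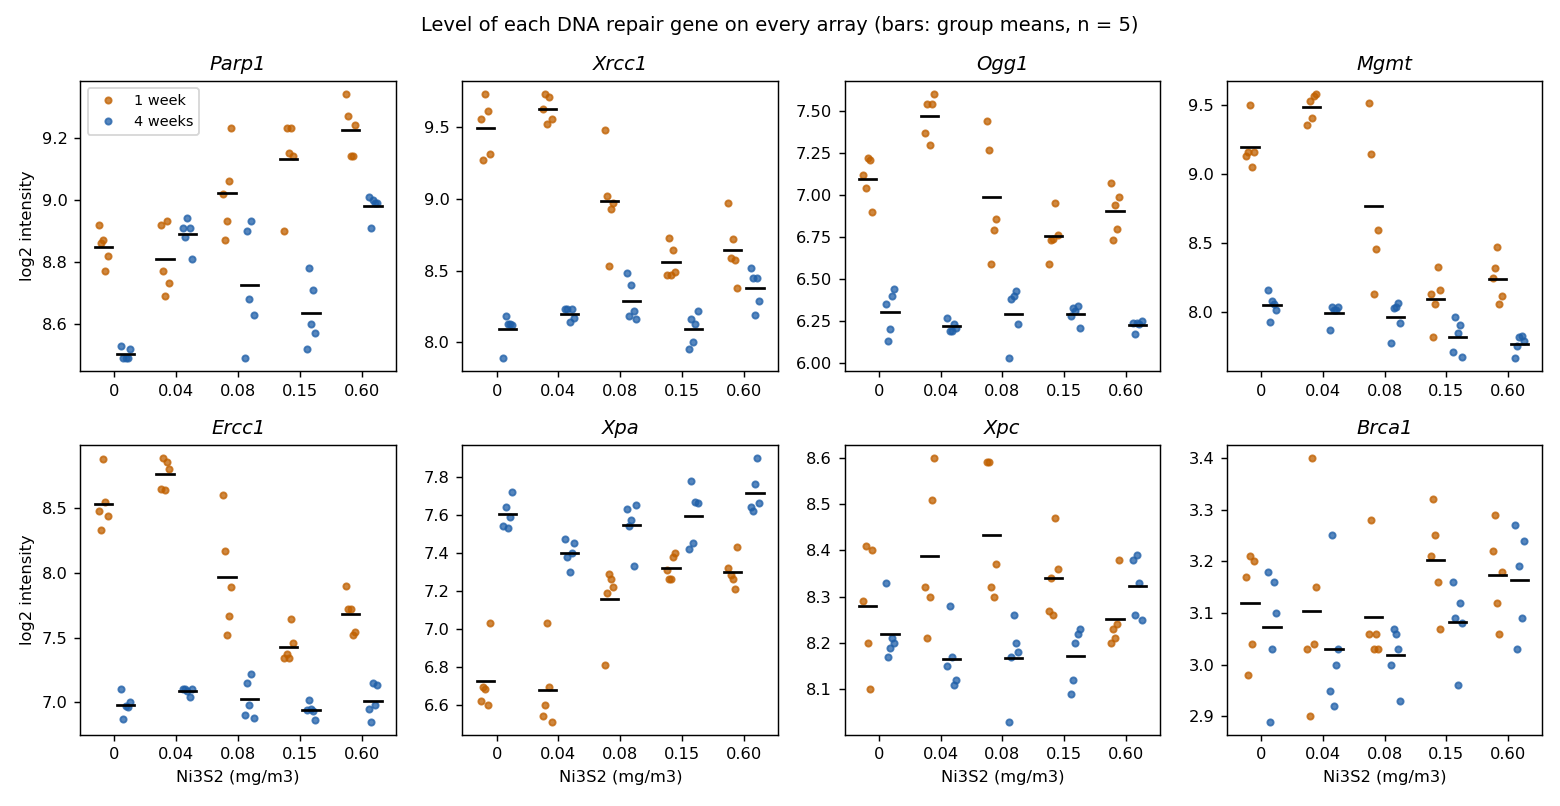
Log2 intensity (y axis of each panel) of the 8 genes on all 50 arrays by Ni3S2 concentration (x axis, mg/m3); points are arrays, orange for 1 week and blue for 4 weeks, and bars are group means of 5. Parp1 is higher at 0.60 mg/m3 than at 0 at both times, while the 1-week controls of Xrcc1, Ogg1, Mgmt and Ercc1 lie above the 4-week controls and those of Xpa below.

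After 4 weeks Parp1 was the 1 member whose RNA was called, and it was higher at 3 of the 4 concentrations. Some of the alternative settings given below also called Xrcc1 and Mgmt at 0.60 mg/m3 and Xpa at 0.04 mg/m3. At 0.60 mg/m3 1 of 8 members was called higher and 0 lower, where 17.4% of all genes were called. The count by limma at 0.15 mg/m3 was 0 of 8 against 3.5% of all genes, and 0 of 8 also had an unadjusted p under 0.05, although Mgmt was called there with array weights (adjusted p = 0.0387). The 0.08 mg/m3 group gave 1 higher and 0 lower against 8.54%, and at 0.04 mg/m3 1 higher and 0 lower against 12.9%. By direction, 9.47% of all genes were higher and 7.9% lower at 0.60 mg/m3, 1.92% and 1.58% at 0.15, 5.67% and 2.87% at 0.08, and 8.29% and 4.61% at 0.04 mg/m3. So few members cannot show a share above or below those figures, and the median change of the 8 was 0.10, -0.01, -0.03 and -0.05 at 0.60, 0.15, 0.08 and 0.04 mg/m3, against medians between -0.013 and 0.016 over all genes.

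Parp1, the break sensor, stood at 9.01, 8.91, 9.0, 8.99 and 8.99 on the 0.60 mg/m3 arrays of 4 weeks and at 8.53, 8.49, 8.49, 8.49 and 8.52 on the 4-week controls. All 5 exposed arrays lay above all 5 controls, as they did for 10.5% of all genes at this concentration, and the controls lay close together. Parp1 was 1.39-fold higher (0.47 ± 0.07, adjusted p = 1.69e-06, limma), a change that stayed between 0.47 and 0.49 when any single array was left out. At 0.04 mg/m3 the arrays read 8.91, 8.88, 8.94, 8.91 and 8.81, again all above the controls (12.3% of all genes), and Parp1 was 1.31-fold higher (0.39 ± 0.07, adjusted p = 0.000231). The 0.08 mg/m3 arrays read 8.49, 8.90, 8.68, 8.93 and 8.63, so that replicate 1 sat among the controls and replicates 2 and 4 as high as the 0.04 mg/m3 arrays. That change of 0.22 ± 0.07 was called narrowly (adjusted p = 0.0419). It lost its call without exposed replicate 2, 3 or 4 or without control replicate 2, 3, 4 or 5 (adjusted p between 0.0547 and 0.183), with arrays centred on their median (0.16, adjusted p = 0.102) and in a model of the 10 compared arrays (adjusted p = 0.14). The 0.15 mg/m3 arrays read 8.52, 8.78, 8.60, 8.71 and 8.57, which overlapped the controls (0.13 ± 0.07, adjusted p = 0.41, 95% interval -0.01 to 0.27).

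The level of Parp1 after 4 weeks did not follow the concentration. From 0 to 0.60 mg/m3 the group means were 8.51 ± 0.02, 8.89 ± 0.05, 8.72 ± 0.19, 8.64 ± 0.11 and 8.98 ± 0.04 (SD). Concentrations were also compared with each other, a step chosen after these values had been seen. Parp1 was higher at 0.60 than at 0.15 mg/m3 by 0.34 ± 0.07 (adjusted p = 0.00194, with 2.87% of genes called). It was lower at 0.15 than at 0.04 mg/m3 (-0.26 ± 0.07, adjusted p = 0.00568, with 28.3% called), and both of these calls held in each of the leave-one-out fits. Between 0.60 and 0.04 mg/m3 it was not called (0.09 ± 0.07, adjusted p = 0.376, with 31.1% called).

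Mean markers of T cells, B cells, heart muscle and smooth muscle had the same order as Parp1 at 0.04, 0.08 and 0.15 mg/m3 of 4 weeks. At 0.60 mg/m3, where Parp1 was highest, each was below its level at 0.04 mg/m3. The mean of 8 T cell markers was 7.43 at 0.04, 7.01 at 0.08, 6.66 at 0.15 and 7.10 at 0.60 mg/m3, and 6.48 in the controls. Per array it ran from 7.28 to 7.56 at 0.04, 6.25 to 7.60 at 0.08, 6.37 to 7.05 at 0.15 and 6.76 to 7.52 at 0.60 mg/m3, against 6.33 to 6.65 in the controls. The T cell markers called higher were 7 of 8 at 0.04, 3 at 0.08, 0 at 0.15 and 5 at 0.60 mg/m3, and of 3 B cell markers 3, 3, 0 and 1 were higher. The B cell means were 7.57, 7.13, 5.79 and 6.77 from 0.04 to 0.60 mg/m3 and 6.09 in the controls, an order unlike that of Parp1 in that 0.15 mg/m3 lay below the controls and 0.60 below 0.08 mg/m3. Neutrophil markers averaged 6.84, 7.15, 7.49 and 7.84 and macrophage markers 8.85, 8.92, 8.99 and 9.09 from 0.04 to 0.60 mg/m3, and the controls 6.97 and 8.85. Within 0.08 mg/m3 the array lowest in Parp1 (replicate 1) was the lowest in T cell markers (6.25) and replicates 2 and 4, the highest in Parp1, were the highest (7.60 and 7.38). B cell markers had the same lowest (6.32) and highest arrays (7.70 and 7.49) there. Within 0.60 mg/m3 this did not hold. The array lowest in Parp1 (replicate 2, 8.91) had T cell markers at 7.15 and B cell markers at 7.08, while replicate 4 was the lowest in T cell markers (6.76). From 0.04 to 0.60 mg/m3 the heart muscle means were 10.73, 10.09, 9.07 and 8.75, and 8.76 in the controls. The smooth muscle means were 9.58, 9.34, 8.28 and 8.24, and 8.37 in the controls. Smooth muscle markers were higher in 5 of 5 at both 0.08 and 0.04 mg/m3, and heart muscle markers in 2 and 5 of 5. Genes of S phase and mitosis had another order: their mean was 5.87, 5.90, 6.42 and 6.53 from 0.04 to 0.60 mg/m3 and 5.78 in the controls, and 23 of 29 were called higher at 0.60 but 1 at 0.04 mg/m3. The part of these cell types and of cell division in the Parp1 values was not tested.

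**Figure D2:**
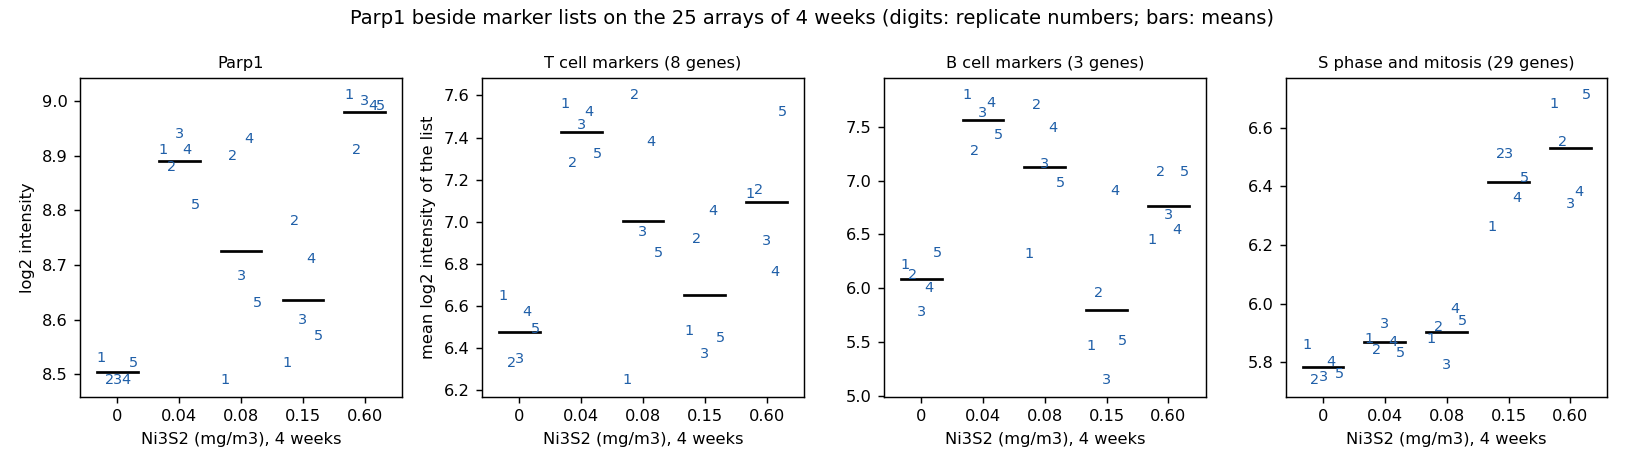
Log2 intensity of Parp1 and the mean log2 intensity of T cell (8 genes), B cell (3 genes) and S phase and mitosis (29 genes) lists on the 25 arrays of 4 weeks, by Ni3S2 concentration (mg/m3); digits are replicate numbers and bars are group means. Parp1 and the T cell list are high at 0.04 mg/m3, low at 0.15 mg/m3 and high again at 0.60 mg/m3, whereas the S phase and mitosis list is low up to 0.08 mg/m3.

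Over the 25 arrays of 4 weeks the genes most like Parp1 were Sting1, the adaptor of cytosolic DNA sensing (Pearson r = 0.94), Tbc1d1 (0.94) and Cyfip2 (0.93). Over all 50 arrays they were Mcm3, a subunit of the replicative helicase (0.90), Macroh2a1, a histone variant (0.87), and Aldh18a1, an enzyme of proline synthesis (0.87). These arrays share groups and times, so the figures describe likeness of pattern only.

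After 1 week Parp1 was also higher. Arrays at 0.60 mg/m3 read 9.34, 9.27, 9.14, 9.14 and 9.24 and 1-week controls 8.92, 8.86, 8.87, 8.77 and 8.82, with no overlap, as for 27.3% of all genes (0.38 ± 0.07, 1.30-fold, adjusted p = 8.29e-06). Group means from 0 to 0.60 mg/m3 were 8.85, 8.81, 9.02, 9.13 and 9.23, an order that did follow the concentration above 0.04 mg/m3. The change was 0.28 ± 0.07 at 0.15 mg/m3 (adjusted p = 0.000551) and -0.04 ± 0.07 at 0.04 mg/m3 (adjusted p = 0.653). At 0.08 mg/m3 the change of 0.17 ± 0.07 (adjusted p = 0.0404) lost its call without exposed replicate 4 or 5 or control replicate 2, 3, 4 or 5 (0.12 to 0.18, adjusted p between 0.0529 and 0.184), and with arrays centred on their median (adjusted p = 0.0532). Set against the 4-week controls, Parp1 at 0.60, 0.15 and 0.08 mg/m3 of 1 week was higher by 0.72, 0.62 and 0.52. Each was called (adjusted p = 3.57e-11, 4.34e-09 and 3.09e-08, limma), where 49.4%, 42.6% and 64.7% of all genes were. Parp1 was itself lower in the 4-week than in the 1-week controls (-0.35 ± 0.07), so this exchange could only enlarge a rise. It also turned the change at 0.04 mg/m3 from -0.04 to a called 0.30 (adjusted p = 0.000155, limma). Whether the 1-week rise in Parp1 rested on the choice of controls was thus not tested. The 4-week change in Parp1 minus the 1-week change was called at 0.04 mg/m3 (0.43 ± 0.10, adjusted p = 0.0029), and at 0.60 mg/m3 it was 0.10 (95% interval -0.10 to 0.30). Of the T cell markers at 1 week, 2 of 8 were lower and 0 higher at 0.60 mg/m3, while 26 of 29 genes of S phase and mitosis were higher. The mean of that S phase and mitosis list was 5.67, 5.79, 6.15, 6.93 and 7.29 from 0 to 0.60 mg/m3 of 1 week. Within 0.15 mg/m3 the array lowest in Parp1 (replicate 1, 8.90) was the lowest in that list (6.15, the others from 6.95 to 7.32). At 0.08 and 0.04 mg/m3 and in the controls the lowest arrays were not the same. The mean of 5 macrophage markers was 8.52, 8.48, 8.66, 8.88 and 8.90 from 0 to 0.60 mg/m3 of 1 week, the same order as that of Parp1, with 2 of 5 called higher at 0.60 mg/m3. The mean of 4 neutrophil markers was 6.30, 6.67, 6.70, 7.33 and 7.39, with 4 of 4 called higher at 0.60 mg/m3. Of all genes 32.8% were called higher and 32.3% lower at this concentration. The 2 of 8 lower T cell markers and 2 of 5 higher macrophage markers lay near those shares. The part of these cell types and of cell division in the 1-week Parp1 values was not tested.

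**Figure D3:**
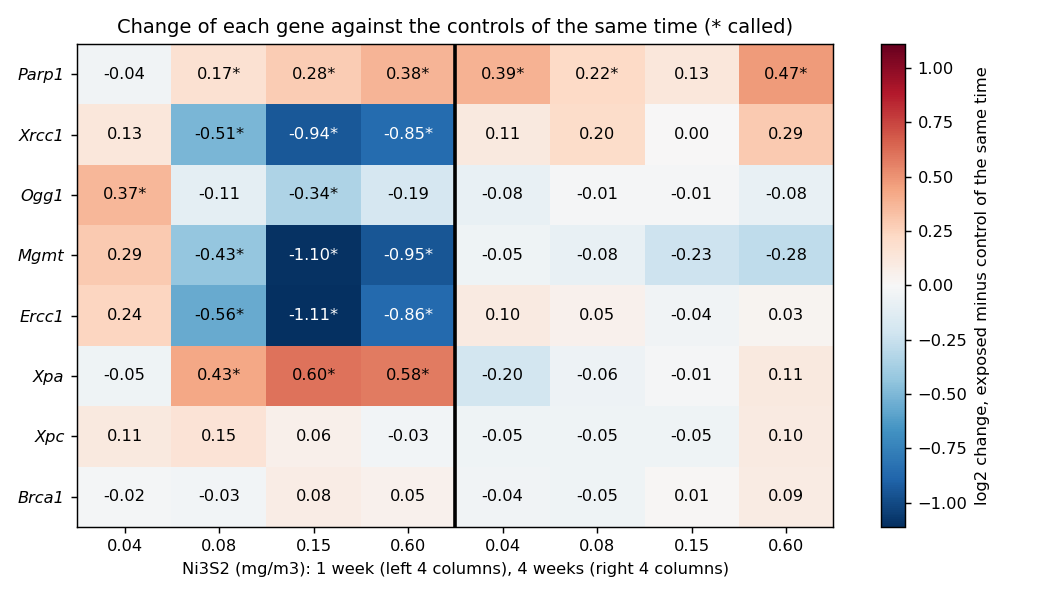
Log2 change of each gene (rows) at each Ni3S2 concentration in mg/m3 (columns) against the controls of the same time, 1 week on the left and 4 weeks on the right; red is higher and blue lower in exposed rats, and asterisks mark calls at an adjusted p under 0.05. Parp1 is called in 6 of the 8 comparisons, Xrcc1, Mgmt and Ercc1 are lower at 3 concentrations at 1 week, and after 4 weeks Parp1 holds the only calls.

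After 1 week more members were called, as were many more genes of the whole table. At 0.60 mg/m3 2 of 8 members were higher (Parp1, Xpa) and 3 lower (Xrcc1, Mgmt, Ercc1), where 65.1% of all genes were called. Calls at 0.15 mg/m3 were 2 higher and 4 lower, Ogg1 being the addition, where 67.4% were called. At 0.08 mg/m3 2 were higher and 3 lower against 48.6% of all genes, and at 0.04 mg/m3 Ogg1 alone was called, higher, against 26.9%. By direction, 32.8% of all genes were higher and 32.3% lower at 0.60 mg/m3, 33.8% and 33.7% at 0.15, 25.1% and 23.5% at 0.08, and 15.1% and 11.8% at 0.04 mg/m3. The members' shares at 0.60 and 0.15 mg/m3 are thus near those of the whole table. With 8 members, the shares at 0.08 and 0.04 mg/m3 cannot be shown to lie above or below it either. None of these counts is a result about repair genes.

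Xrcc1, the scaffold of single-strand break repair, read 8.97, 8.59, 8.72, 8.57 and 8.38 at 0.60 mg/m3 after 1 week and 9.56, 9.27, 9.73, 9.61 and 9.31 in the 1-week controls. All exposed arrays were below all controls, as for 26.1% of all genes, and Xrcc1 was 1.80-fold lower (-0.85 ± 0.11, adjusted p = 2.4e-09). It fell at 0.15 mg/m3 (-0.94 ± 0.11, adjusted p = 1.89e-10) and at 0.08 mg/m3 (-0.51 ± 0.11, adjusted p = 0.000114), and read 0.13 ± 0.11 at 0.04 mg/m3 (adjusted p = 0.35). After 4 weeks the 0.60 mg/m3 arrays read 8.52, 8.45, 8.19, 8.45 and 8.29 and the controls 7.89, 8.18, 8.13, 8.13 and 8.12. The exposed arrays thus lay above the controls, as for 10.5% of all genes. That difference of 0.29 ± 0.11 just missed the threshold (adjusted p = 0.0514, limma, 95% interval 0.08 to 0.51). It was called in 6 of 10 alternative settings (lowest adjusted p = 0.00315). These included the filter on the dimmest 25% of genes (adjusted p = 0.0445) and a model of the 25 arrays of 4 weeks (adjusted p = 0.00429). It was also called without exposed replicate 3 (0.34, adjusted p = 0.0331). The change at 4 weeks minus that at 1 week was itself called, at 1.14 ± 0.15 for 0.60, 0.94 ± 0.15 for 0.15 and 0.71 ± 0.15 for 0.08 mg/m3. These differences between times counted 4 called members of 8 at 0.60 mg/m3 (56.7% of all genes), 5 at 0.15 (56.8%), 3 at 0.08 (44.4%) and 2 at 0.04 mg/m3 (12%).

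Ogg1, the 8-oxoguanine glycosylase, was the 1 member called higher at the lowest concentration after 1 week. The 0.04 mg/m3 arrays read 7.37, 7.54, 7.30, 7.54 and 7.60 and the controls 7.12, 7.04, 7.22, 7.21 and 6.90, with no overlap, as for 6.69% of all genes (0.37 ± 0.10, 1.29-fold, adjusted p = 0.00595). Mgmt (0.29, adjusted p = 0.0907) and Ercc1 (0.24, adjusted p = 0.109) missed the threshold there, and both passed it without control replicate 3 (0.36, adjusted p = 0.0409, and 0.32, adjusted p = 0.0321). Ogg1 was lower at 0.15 mg/m3, with arrays at 6.59, 6.73, 6.74, 6.95 and 6.76 (-0.34 ± 0.10, adjusted p = 0.00203). At 0.60 mg/m3 it read -0.19 ± 0.10 (adjusted p = 0.082), which was called with arrays centred on their median (-0.23, adjusted p = 0.0328), without control replicate 5 (adjusted p = 0.0356) and without exposed replicate 1 (adjusted p = 0.0461). After 4 weeks its group means lay between 6.22 and 6.30 in all 5 groups, and no change exceeded 0.08 in size (adjusted p at least 0.637). The 95% interval at 0.60 mg/m3 of 4 weeks was -0.28 to 0.12. The 4-week change minus the 1-week change was called at 0.04 mg/m3 (-0.46 ± 0.14, adjusted p = 0.0245), but not without 1-week control replicate 5 (adjusted p = 0.0507) or 1-week exposed replicate 5 (adjusted p = 0.0522). This difference was called at 0.15 mg/m3 as well (0.34 ± 0.14, adjusted p = 0.0368), and lost its call without any 1 of 1-week control replicates 1, 3 and 4, 4-week control replicates 2 and 3, 1-week exposed replicates 1 and 2 and 4-week exposed replicates 2 and 4 (0.29 to 0.33).

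Mgmt, the methyltransferase, changed after 1 week about as much as Xrcc1. At 0.60 mg/m3 its arrays read 8.25, 8.32, 8.47, 8.06 and 8.12 and the controls 9.13, 9.16, 9.50, 9.05 and 9.16. This was a 1.94-fold lower level with no overlap, as for 26.1% of all genes (-0.95 ± 0.13, adjusted p = 2.34e-08). Its level was 2.14-fold lower at 0.15 mg/m3 (-1.10 ± 0.13, adjusted p = 7.43e-10). At 0.08 mg/m3 the arrays ran from 8.13 to 9.52, and the change of -0.43 ± 0.13 (adjusted p = 0.00688) lost its call without exposed replicate 3 (-0.26, adjusted p = 0.0746) and in a model of the 10 compared arrays (adjusted p = 0.174). After 4 weeks at 0.60 mg/m3 Mgmt read 7.67, 7.76, 7.82, 7.83 and 7.79 and 8.16, 7.93, 8.08, 8.06 and 8.02 in controls. Every exposed array was below every control, as for 9.03% of all genes, but the change of -0.28 ± 0.13 was not called (adjusted p = 0.154). It was called at 0.60 mg/m3 with array weights (adjusted p = 0.00624) and in a model of the 10 compared arrays (adjusted p = 0.00407). In a model of the 25 arrays of 4 weeks it was called at 0.60 mg/m3 (adjusted p = 0.00205) and at 0.15 mg/m3 (-0.23, adjusted p = 0.026). The model of 25 arrays was chosen after the data had been seen. The 4-week change minus the 1-week change was called at 0.60 (0.68 ± 0.19, adjusted p = 0.00188) and 0.15 mg/m3 (0.87 ± 0.19), and at 0.08 mg/m3 (0.34, adjusted p = 0.134) it was called without 1-week exposed replicate 1 (0.53, adjusted p = 0.00381). The genes most like Mgmt over those 25 arrays were Etv5, a transcription factor (r = 0.93), Sat2 (0.92) and Fpgs, the folylpolyglutamate synthase (0.89).

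Ercc1, the nuclease subunit, fell by about as much as Mgmt. At 0.15 mg/m3 after 1 week its arrays read 7.34, 7.37, 7.34, 7.64 and 7.46 and the controls 8.48, 8.33, 8.88, 8.55 and 8.44, 2.15-fold lower (-1.11 ± 0.11, adjusted p = 1.17e-11). The change was -0.86 ± 0.11 at 0.60 mg/m3 (adjusted p = 8.22e-09) and at 0.08 mg/m3 -0.56 ± 0.11 (adjusted p = 6.36e-05). After 4 weeks Ercc1 means lay between 6.94 and 7.08 in all 5 groups, with changes between -0.04 and 0.10 (adjusted p at least 0.601). At 0.60 and 0.08 mg/m3 the small positive values turned negative with arrays centred on their median (-0.01 each). The 4-week change minus the 1-week change was called at 0.60 (0.88 ± 0.16), 0.15 (1.07 ± 0.16) and 0.08 mg/m3 (0.61 ± 0.16).

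Xpa, the damage verifier of the same pathway, moved the other way. After 1 week Xpa at 0.60 mg/m3 read 7.32, 7.28, 7.26, 7.21 and 7.43, against 6.62, 6.69, 6.68, 6.60 and 7.03 in the 1-week controls, and was 1.49-fold higher (0.58 ± 0.09, adjusted p = 2.07e-07). It was higher at 0.15 mg/m3 (0.60 ± 0.09, adjusted p = 7.74e-08) and at 0.08 mg/m3 (0.43 ± 0.09, adjusted p = 8.74e-05). After 4 weeks the 0.04 mg/m3 arrays, at 7.47, 7.38, 7.30, 7.40 and 7.45, lay below the controls at 7.54, 7.64, 7.53, 7.59 and 7.72 (6.82% of all genes did). The change of -0.20 ± 0.09 was not called by limma (adjusted p = 0.124). It was called in 4 of 10 alternative settings, with adjusted p = 0.0309 for arrays centred on their median and 0.00345 at the lowest. The 4-week change minus the 1-week change was called at 0.60 (-0.47 ± 0.13), 0.15 (-0.61 ± 0.13) and 0.08 mg/m3 (-0.49 ± 0.13). Set against each other after the values had been seen, the 0.60 mg/m3 arrays were higher than the 0.04 mg/m3 arrays (0.31 ± 0.09, adjusted p = 0.00535).

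Xpc, the recognition factor, was not called at any concentration against the controls of its time, and its 10 group means spanned 0.27. Its largest change was 0.15 ± 0.07 at 0.08 mg/m3 after 1 week (adjusted p = 0.0563), which passed the threshold without exposed replicate 3 or 4 or control replicate 2 or 5 (0.18 to 0.19, adjusted p between 0.0284 and 0.0342). After 4 weeks at 0.60 mg/m3 it read 8.38, 8.26, 8.39, 8.33 and 8.25 and the controls 8.33, 8.17, 8.19, 8.21 and 8.20, which overlapped (0.10 ± 0.07, adjusted p = 0.348). Brca1 read 3.27, 3.03, 3.19, 3.09 and 3.24 at 0.60 mg/m3 of 4 weeks and 3.18, 2.89, 3.03, 3.16 and 3.10 in the controls, which overlapped. It was not called in any comparison, with 10 group means between 3.02 and 3.20 and changes against controls between -0.05 and 0.09. Its mean of 3.11 lay close to the bottom of the table, where the 5th percentile of gene means was 3.05, and it was left out by the filter on the dimmest 25% of genes. No level above the lowest signals was thus measured for Brca1.

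In the order of its 10 group means each member showed how far neighbours could be told apart. For Ercc1 the order by falling level was 0.04, 0, 0.08, 0.60 and 0.15 mg/m3 at 1 week and then the 5 groups of 4 weeks, and the arrays of neighbouring groups were separated at 1 of 9 steps, between the times. Ogg1 had 2 separated steps of 9, one between the times and one between 0.04 and 0 mg/m3 at 1 week. Xrcc1, Mgmt, Xpa, Xpc, Brca1 and Parp1 had 0 of 9. Xpa began with the 4-week groups, and its 2 lowest means were 6.72 in the 1-week controls and 6.67 at 0.04 mg/m3 of 1 week. The means spanned 1.83 for Ercc1, 1.72 for Mgmt, 1.54 for Xrcc1, 1.25 for Ogg1, 1.05 for Xpa and 0.72 for Parp1.

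The unexposed rats of the 2 times differed in 6 of the 8 members. Against the 1-week controls, 1 member was higher and 5 were lower in the 4-week controls, where 73.5% of all genes were called (35.2% higher, 38.2% lower). Ercc1 read 7.10, 6.87, 6.97, 6.96 and 7.00 at 4 weeks and 8.48, 8.33, 8.88, 8.55 and 8.44 at 1 week, 2.94-fold lower at 4 weeks (-1.56 ± 0.11, adjusted p = 5.76e-16). Xrcc1 differed by -1.41 ± 0.11, Mgmt by -1.15 ± 0.13, Ogg1 by -0.79 ± 0.10 and Parp1 by -0.35 ± 0.07, while Xpa was higher at 4 weeks by 0.88 ± 0.09. In each of these 6 the 5 arrays of one time lay apart from the 5 of the other, as they did, higher or lower at 4 weeks, for 30.8% and 33% of all genes. Age, time in the chambers and any handling of the samples that differed between the times cannot be told apart here.

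For Xrcc1, Ogg1, Mgmt, Ercc1 and Xpa the directions after 1 week at 0.60, 0.15 and 0.08 mg/m3 rested on which controls were used. Set against the 4-week controls, the 1-week 0.60 mg/m3 arrays were higher in Xrcc1 (0.56 ± 0.11, adjusted p = 2.84e-05), Ogg1 (0.60 ± 0.10, adjusted p = 2.38e-06) and Ercc1 (0.70 ± 0.11, adjusted p = 1.96e-06). They were lower in Xpa (-0.30 ± 0.09, adjusted p = 0.00394) and not called in Mgmt (0.19 ± 0.13, adjusted p = 0.232). These signs are opposite to those against the 1-week controls, and the 0.15 and 0.08 mg/m3 arrays turned likewise. Within the 0.08 mg/m3 group of 1 week, replicate 1, which lay among the 1-week controls on the first component, had the highest Xrcc1 (9.48), Mgmt (9.52), Ercc1 (8.60) and Ogg1 (7.44) and the lowest Xpa (6.81). Without it the changes in that group were larger, at -0.63 for Xrcc1, -0.61 for Mgmt, -0.72 for Ercc1 and 0.52 for Xpa, and Ogg1 was called (-0.22, adjusted p = 0.0415). Markers of smooth muscle also differed between the controls, with a mean of 8.37 at 4 weeks and 10.18 at 1 week, and were lower in 5 of 5 at each 1-week concentration. The part of these shifts in the repair genes was not tested.

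**Figure D4:**
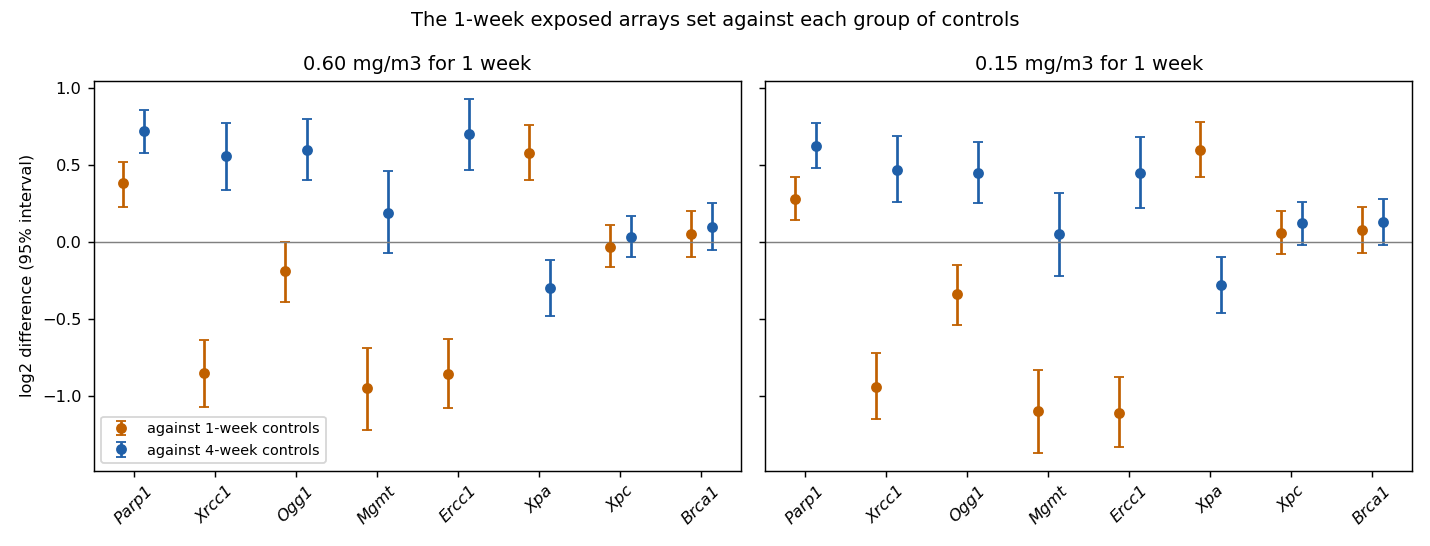
Log2 difference (y axis) of the 1-week 0.60 mg/m3 arrays (left panel) and 0.15 mg/m3 arrays (right panel) from the 1-week controls (orange) and from the 4-week controls (blue) for each gene (x axis); bars are 95% intervals of the model, n = 5 per group. Xrcc1, Ogg1, Mgmt and Ercc1 lie below 0 against the 1-week controls and above 0 against the 4-week controls, Xpa the reverse, and Parp1 above 0 against both. Parp1 was lower in the 4-week than in the 1-week controls, so its sign could not turn here.

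The wider repair machinery was described with lists of 132 further symbols, of which 104 genes were measured. After 4 weeks at 0.60 mg/m3, 15 of 104 were called higher and 4 lower (18.3%, near the 17.4% of all genes), with a median change of 0.10. Without exposed replicate 1 the count of 19 was 12. Homologous recombination and the Fanconi pathway, where Brca1 acts, had 10 of 29 higher and 1 lower. They were led by Ube2t, the ubiquitin-conjugating enzyme of the Fanconi pathway (1.08 ± 0.22, adjusted p = 0.00033), the recombination motor Rad54l (0.77 ± 0.17), Fancb (0.58 ± 0.19) and the exonuclease Exo1 (0.57 ± 0.16). Damage signalling had 3 of 11 higher and 0 lower: the checkpoint kinase Chek1 (0.52 ± 0.13), the histone H2ax (0.41 ± 0.11) and Topbp1 (0.35 ± 0.12). Several genes of these lists are also made in dividing cells, and the S phase and mitosis list had a median change of 0.61, led by Melk (1.66 ± 0.27), Top2a (1.64 ± 0.22), the proliferation marker Mki67 (1.53 ± 0.25) and Bub1 (1.40 ± 0.22). The part of cell division in these counts was not tested.

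In the other repair pathways after 4 weeks at 0.60 mg/m3, where 17.4% of all genes were called, the share called was 11.8% in base excision, 4.76% in nucleotide excision, 11.1% in end joining and 20% in mismatch repair. Of 17 further genes of base excision repair 1 was higher, the DNA ligase Lig1 (0.18 ± 0.07, adjusted p = 0.0464), and 1 lower, the glycosylase Nthl1 (-0.38 ± 0.07, adjusted p = 0.000114). Of 21 of nucleotide excision repair 1 was higher, the TFIIH subunit Gtf2h1 (0.35 ± 0.11, adjusted p = 0.0199). End joining had 1 of 9 lower, the Ku subunit gene Xrcc5 (-0.96 ± 0.14, adjusted p = 5.71e-07), and mismatch repair 1 of 5 lower, Mlh3 (-0.23 ± 0.07, adjusted p = 0.0209). In translesion synthesis 0 of 10 and in direct reversal 0 of 2 were called. Targets of p53, the transcription factor that responds to DNA damage, had 1 of 15 higher and 5 lower, including the growth inhibitor Cdkn1a (-0.53 ± 0.15), Gdf15 (-0.78 ± 0.22), Phlda3 (-0.70 ± 0.14) and Plk2 (-0.55 ± 0.11).

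At the lower concentrations of 4 weeks 2.88% of the 104 were called at 0.15 mg/m3 (3.5% of all genes), 4.81% at 0.08 (8.54%) and 6.73% at 0.04 mg/m3 (12.9%). The genes called are named because the counts were small, after their values had been seen. Of the 104, 3 were higher and 0 lower at 0.15 mg/m3, namely Ube2t (1.03), Chek1 (0.50) and H2ax (0.39). At 0.08 mg/m3 0 were higher and 5 lower, between -0.33 (Xrcc4) and -0.37 (Cetn2 and Mnat1), with Rad51b at -0.35 and Abraxas1 at -0.36. At 0.04 mg/m3 the nuclease Mus81 (0.39) and Atrip (0.29) were higher and 5 were lower, namely Mnat1 (-0.39), Rad51b (-0.36), Abraxas1 (-0.35), Dclre1c (-0.35) and Xrcc4 (-0.32). Groups at 0.08 and 0.04 mg/m3 share their controls, and their counts moved with single arrays, from 0 to 5 genes and from 1 to 9 genes when 1 array was left out. The fewest were left without exposed replicate 4 at 0.08 mg/m3 (0 genes) and without exposed replicate 3 or 4 or control replicate 5 at 0.04 mg/m3 (1 gene). At 0.15 mg/m3, 1 gene was left without control replicate 2.

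After 1 week 62 of the 104 were higher and 18 lower at 0.60 mg/m3 (76.9%, where 65.1% of all genes were called), with a median change of 0.49. Ube2t rose by 3.20 ± 0.22, the replication clamp Pcna by 1.32 ± 0.10, the flap endonuclease Fen1 by 1.20 ± 0.12, Fancd2 by 1.51 ± 0.15 and the single-strand binding subunit Rpa2 by 1.39 ± 0.11. The Ku subunit genes Xrcc5 (1.34 ± 0.14) and Xrcc6 (1.27 ± 0.10), the mismatch genes Msh6 (0.80 ± 0.13) and Msh3 (0.77 ± 0.14), Rad1 (1.21 ± 0.10), Chek1 (1.18 ± 0.13), Rad18 (1.14 ± 0.16) and Ube2a (0.75 ± 0.09) were higher. The splicing and repair factor Xab2 (-1.23 ± 0.15) and the alkylation repair enzyme Alkbh2 (-0.92 ± 0.15) were lower, and Alkbh3 was higher (0.24 ± 0.07). Xrcc5 was lower after 4 weeks and higher after 1 week, each against its own controls. At 0.15 mg/m3 63 were higher and 24 lower (83.7%, against 67.4% of all genes), at 0.08 mg/m3 38 and 17 (52.9%, against 48.6%), and at 0.04 mg/m3 17 and 18 (33.7%, against 26.9%). That last count of 35 was 22 without exposed replicate 4 and 23 without control replicate 5. Genes of S phase were led by Rrm2 at 3.83 ± 0.22 and Melk at 3.66 ± 0.27. Of the 15 p53 targets 8 were higher and 6 lower at 0.60 mg/m3, with a median change of 0.30, and the largest changes were falls of Gdf15 (-2.07 ± 0.22) and Phlda3 (-1.61 ± 0.14). All of these 1-week figures are set against the 1-week controls, with the limit described for the members.

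**Figure D5:**
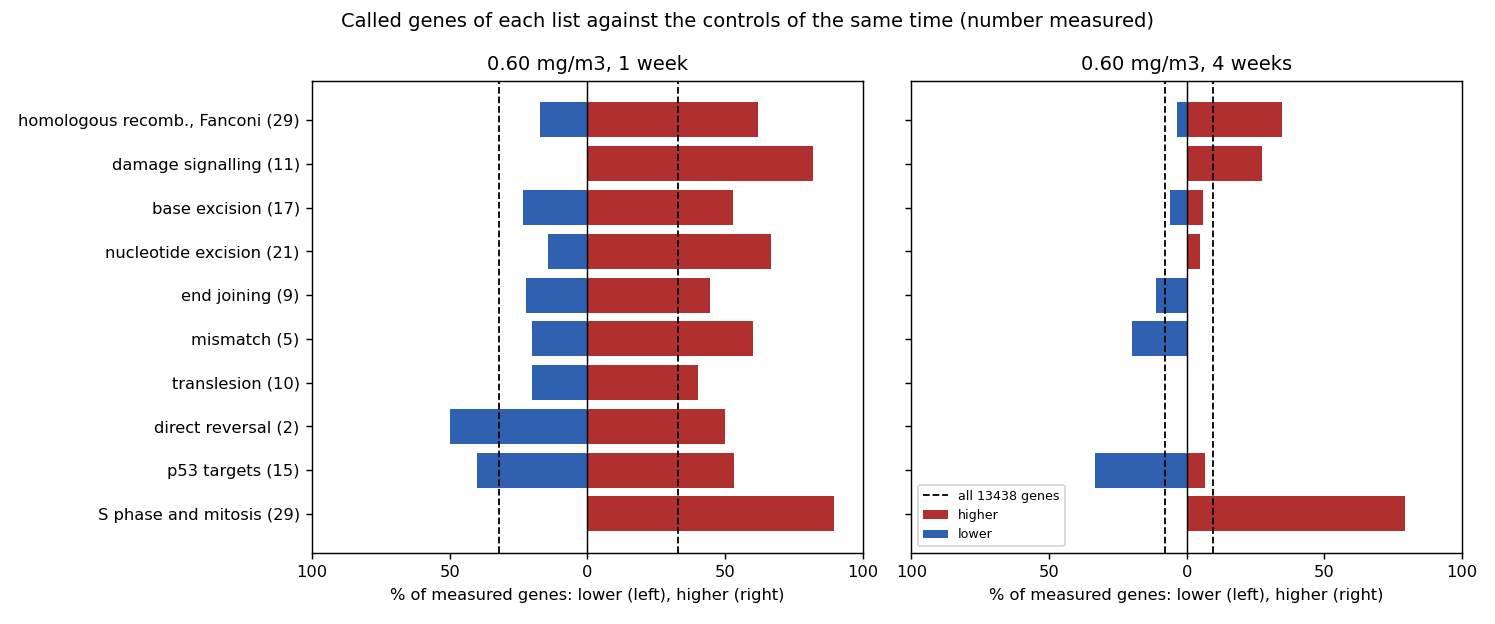
Share of measured genes of each list called higher (red, to the right) or lower (blue, to the left) at 0.60 mg/m3 against the controls of the same time, in percent, after 1 week (left) and 4 weeks (right); dashed lines are the shares of all 13438 genes and numbers in brackets the genes measured, members left out of the repair lists. After 4 weeks the S phase and mitosis list (23 of 29 higher) and the homologous recombination list (10 of 29) reach furthest to the right, and base and nucleotide excision repair stay at 1 gene higher each.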

How the data were processed

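RNA of 50 rats was measured on 1 array each. Per the submitters' processing notes the authors used RMA and Partek, and the deposited values are log2 intensities. Which arrays were normalised together is not given in the sources used here. Of 31042 probe sets, 19063 carry 1 gene symbol, 572 several and 11407 none. Per gene the probe set with the highest mean over the 50 arrays was kept, which gave 13438 genes. Groups came from the labels. All 10 groups entered 1 limma model (limma 3.58.1, R 4.3.3) with group means and empirical Bayes. Adjusted p values are Benjamini-Hochberg over all genes, with a threshold of 0.05, and the test was checked on simulated data. Beyond the animal groups, the dissection, the RNA amount and the choice by RNA quality, no handling of the samples was taken from the labels. The p values measure the spread between these samples, which the model shares over all 10 groups. That spread was not equal in all groups. For Mgmt the SD was 0.56 at 0.08 mg/m3 of 1 week and 0.06 at 0.60 mg/m3 of 4 weeks. The number of arrays limits the precision.

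All 8 members are named in every comparison. From each list up to 4 called genes with the largest change at 0.60 mg/m3 and 4 weeks are named, and up to 2 at 1 week. Likeness is by Pearson correlation, 3 genes for each member and set of arrays. Members and lists were chosen with earlier results of these data known. Alternatives were centring, quantile normalization, array weights, an intensity trend, a filter on the dimmest 25% of genes, the mean of a gene's probe sets, a change of at least 1.5-fold, the compared groups only, a replicate block, the 4-week controls, leaving out each array and, added after seeing the data, the 25 arrays of 4 weeks alone. Any pair of arrays differed in at least 31031 probe sets.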

Additional observations from a re-analysis of the deposited data

Results flagged for a closer look

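In 12 of the 80 sets of 5 arrays (8 genes in 10 groups), 1 array lay far from the other 4 by Dixon's test at the 95% level, where chance gives about 1 in 20. After 4 weeks these were low values of Parp1 at 0.60 mg/m3 (replicate 2, 8.91, the others from 8.99 to 9.01), Ogg1 at 0.60 mg/m3 (replicate 2, 6.17), Mgmt at 0.04 mg/m3 (replicate 1, 7.87), Ercc1 at 0.04 mg/m3 (replicate 4, 7.04) and Xrcc1 in the controls (replicate 1, 7.89), and a high value of Xpc in the controls (replicate 1, 8.33). After 1 week they were a low Parp1 at 0.15 mg/m3 (replicate 1, 8.90), a low Xpa at 0.08 mg/m3 (replicate 1, 6.81), a high Brca1 at 0.08 mg/m3 (replicate 2, 3.28), a high Xpc at 0.60 mg/m3 (replicate 5, 8.38), and among the controls a high Mgmt (replicate 3, 9.50) and a high Xpa (replicate 5, 7.03).

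The change at 4 weeks minus the change at 1 week was called by limma in 14 of 32 tests of the members. At 0.60 mg/m3 it was 1.14 for Xrcc1, 0.68 for Mgmt, 0.88 for Ercc1 and -0.47 for Xpa. At 0.15 mg/m3 it was 0.94 for Xrcc1, 0.34 for Ogg1, 0.87 for Mgmt, 1.07 for Ercc1 and -0.61 for Xpa. At 0.08 mg/m3 it was 0.71 for Xrcc1, 0.61 for Ercc1 and -0.49 for Xpa. At 0.04 mg/m3 it was -0.46 for Ogg1 and 0.43 for Parp1. Each rests on both sets of controls, which themselves differed in 73.5% of all genes.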

How the results depend on the processing

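Bulk tissue, 5 arrays a group and 1 probe set for each member limit these results, and Brca1 lay near the lowest signals. With 1 probe set per member, the mean of a gene's probe sets left the members' values as they were. That setting could alter their tests only through the other genes, so it does not test the members. When 1 array was left out, 1358 of 1420 member changes kept direction and call.

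When the 4-week controls took the place of the 1-week controls, these 1-week changes turned sign, at 0.60, 0.15 and 0.08 mg/m3: Xrcc1 (0.56, 0.47, 0.90), Ogg1 (0.60, 0.45, 0.69), Mgmt (0.19, 0.05, 0.72), Ercc1 (0.70, 0.45, 0.99) and Xpa (-0.30, -0.28, -0.45). So did Xpc at 0.60 (0.03), Brca1 at 0.08 (0.02) and 0.04 (0.03) and Parp1 at 0.04 mg/m3 (0.30). At 0.04 mg/m3 7 members and 82 other repair genes were called, where 81.7% of all genes were. The exchange replaces every control array.

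In the following, counts are genes called and the cause of each difference was not tested. Over the 25 arrays of 4 weeks, 3, 1 and 2 members were called at 0.60, 0.15 and 0.04 mg/m3, and 36, 14, 17 and 27 other repair genes at 0.60, 0.15, 0.08 and 0.04 mg/m3. With array weights the members were 3, 1 and 2 at the same 3 concentrations, 3 at 0.04 mg/m3 of 1 week and 5 at 0.08 mg/m3 when the times were compared; the other repair genes at 4 weeks were 37, 20, 24 and 38. Signs turned for Ogg1 at 0.08 mg/m3 of 4 weeks (0.05) and for Brca1 differences (0.02 at 0.08, 0.01 at 0.04 mg/m3). With centred arrays, 0 members at 0.08 and 2 at 0.04 mg/m3 of 4 weeks were called, and 11 and 14 other repair genes, all lower. Ercc1 turned at 0.60 and 0.08 mg/m3 of 4 weeks (-0.01 each; -0.01 and -0.02 with quantile normalization), as did Brca1 (0.04) and Xpc (0.03) between controls, and Brca1 in the difference at 0.04 mg/m3 with quantile normalization (0.04). With the compared groups only, members were 3, 0 and 2 at 0.60, 0.08 and 0.04 mg/m3 of 4 weeks and 3 at 0.08 mg/m3 of 1 week, and other repair genes 31, 12 and 27 at 0.60, 0.15 and 0.04 mg/m3 of 4 weeks and 19 at 0.04 mg/m3 of 1 week. With a 1.5-fold minimum, 0 members were called at 4 weeks, 3 at 0.60, 0 at 0.08 and 0 at 0.04 mg/m3 of 1 week and 0 for the difference at 0.04 mg/m3; other repair genes were 3, 1, 0 and 0 at 4 weeks and 55, 14 and 1 at 0.15, 0.08 and 0.04 mg/m3 of 1 week. With an intensity trend, and without the dimmest 25% of genes, 2 members were called at 0.60 mg/m3 of 4 weeks.

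Replicate numbers did not pair the samples: deviations of same-numbered arrays had a mean correlation of -0.001 over 225 pairs, 62 of them over 0.1. With the replicate block 2 members were called at 0.60 and 0 at 0.08 mg/m3 of 4 weeks.

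Leaving out each array in turn, members called ranged from 1 to 2 at 0.60 and 0 to 1 at 0.08 mg/m3 of 4 weeks, 1 to 3 at 0.04 mg/m3 of 1 week and 1 to 2 for the difference at 0.04 mg/m3. Other repair genes ranged from 12 to 18, 1 to 4, 0 to 5 and 1 to 9 at 0.60, 0.15, 0.08 and 0.04 mg/m3 of 4 weeks, and 22 to 42 at 0.04 mg/m3 of 1 week. Small changes crossed 0: at 4 weeks Ercc1 at 0.60 (-0.01 to 0.07), at 0.15 mg/m3 Brca1 (-0.04 to 0.04), Ogg1 (-0.05 to 0.03) and Xpa (-0.05 to 0.04), and Ogg1 at 0.08 (-0.05 to 0.05); at 1 week and 0.04 mg/m3 Brca1 (-0.09 to 0.03) and Xpa (-0.14 to 0.03); and the differences of Brca1 at 0.08 (-0.07 to 0.02) and 0.04 (-0.08 to 0.05) and Xrcc1 at 0.04 mg/m3 (-0.08 to 0.04).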
